A study of Epimedium pseudowushanense with 3 samples.

Results

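The comparison between seeds with a grown embryo and germinating seeds of Epimedium pseudowushanense, a herb related to barberry, covered 36306 of the 178603 assembled transcripts (20.3%). These were all transcripts with at least 1 RPKM in at least 1 of the 2 libraries. RPKM is a read count divided by transcript length and by library size, so it is a level per length. RNA came from whole seeds at 3 developmental stages, with 1 sequencing library at each. The grown-embryo library was made from seeds whose embryo was longer than 0.5 of the seed, and the germinating library from seeds at germination. A library from seeds whose embryo had begun to grow did not enter the choice of transcripts or any call, and its values are given beside them. No genotype, strain, treatment or age was given for any group, and all groups share the species and the tissue. With 1 library per stage there was no replicate error and no test, so every value below compares single libraries. Effects of the seed lot or of the preparation of a library cannot be told apart from the stage.

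Seeds of this kind are shed with a small, underdeveloped embryo inside a large endosperm, the tissue that stores reserves. Before they can germinate, the embryo has to grow inside the seed and a physiological block has to be lifted, a combination called morphophysiological dormancy. Abscisic acid is the hormone that maintains such dormancy, and gibberellins promote its release and germination, in which stored reserves are broken down and the root emerges. The study looked for genes of these hormone pathways. The files pair no gene name with the assembly numbers of the transcripts, so the transcripts are described here by level and by pattern, and the stage labels were not checked against marker genes.

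The libraries resembled each other in total level. The summed RPKM over all transcripts was 626584 in the grown-embryo library and 615633 in the germinating library. The compared transcripts made up 92.3% of that sum in the grown-embryo library, 97.1% in the germinating library and 91.5% in the library from the start of embryo growth. The depth in reads is unknown, since the table gives no counts. The most common value above 0 lay close together, at 0.25 RPKM in the grown-embryo library, 0.27 RPKM in the germinating library and 0.26 RPKM at the start of embryo growth. In whole seeds, fewer cells of a type and less RNA per cell cannot be told apart.

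Most compared transcripts differed by less than 1 on the log2(RPKM + 1) scale. Those that differed by more were mainly weak transcripts with a lower value in germinating seeds. Adding 1 to each value shrinks the differences of weak transcripts, so a small difference on this scale need not mean similar levels. A transcript was called higher or lower when its log2(RPKM + 1) differed by at least 1 and the higher value was at least 1 RPKM. By this rule 36.2% of the compared transcripts were called, 5.25% as higher and 31.0% as lower in germinating seeds. That made 1906 higher and 11239 lower transcripts, and 23161 (63.8%) within the size rule. At a difference of 2 or more, 4.83% were called, 385 as higher and 1369 as lower. The median difference over all 36306 transcripts, germinating minus grown embryo, was -0.30 on the log2(RPKM + 1) scale, with an interquartile range from -1.07 to 0.20. In 19284 transcripts (53.1%) both libraries reached 1 RPKM, and there the balance was the opposite, with 1067 higher and 617 lower and a median difference of 0.04. A further 14601 transcripts reached 1 RPKM in the grown-embryo library alone and 2421 in the germinating library alone.

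**Figure D1:**
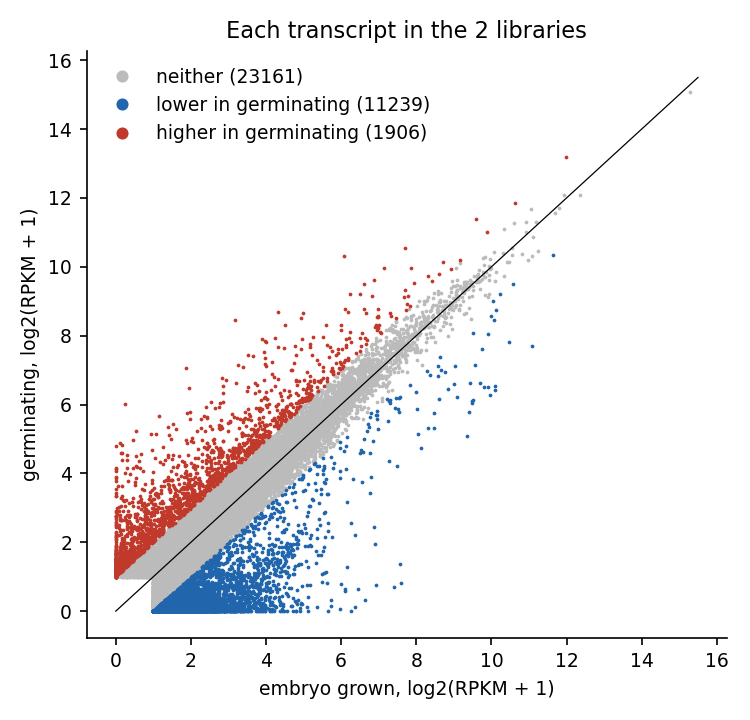
Level of each of the 36306 compared transcripts in the grown-embryo library (x axis) and the germinating library (y axis), both as log2(RPKM + 1), with the line of equal values. The 11239 lower transcripts (blue) are densest at the bottom left, near 1 RPKM in the grown-embryo library. Lower transcripts occur up to high levels, 28 of them at a mean of 300 RPKM or more. The 1906 higher transcripts (red) are spread along the level axis.

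The balance between higher and lower transcripts turned with level. Below a mean of 1 RPKM over the 2 libraries, 64.5% of 11449 transcripts were lower and 3.09% higher. By the choice of transcripts, each in this class had 1 value of at least 1 RPKM and the other under 1 RPKM. Any listed 0 is then called, as for 6044 transcripts at germination and 244 with a grown embryo. The share called in this class therefore depends strongly on the choice. The choice treats both libraries alike and does not set how many values are listed at 0 in each. From 1 up to 3 RPKM, 28.1% of 9703 were lower and 4.22% higher, and from 3 up to 10 RPKM 10.5% of 7475 were lower and 6.76% higher. Above that, higher transcripts were the more frequent. From 10 up to 30 RPKM there were 345 higher and 230 lower transcripts among 4678, from 30 up to 100 RPKM 196 and 57 among 2110, and from 100 up to 300 RPKM 71 and 27 among 620. At 300 RPKM or more both directions were nearly equal again, with 26 higher and 28 lower among 271. The share of higher transcripts thus lay between 3.09% and 11.5% over the level classes, while the share of lower ones ranged from 2.70% to 64.5%.

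The spread of the differences varied with level. The interquartile range was 0.40 wide on the log2(RPKM + 1) scale below 1 RPKM, 1.37 wide from 1 up to 3 RPKM, 0.64 wide from 10 up to 30 RPKM and 0.55 wide at 300 RPKM or more. The median difference was -1.06 below 1 RPKM, -0.29 from 1 up to 3 RPKM, -0.01 from 3 up to 10 RPKM and 0.21 from 100 up to 300 RPKM. Below 1 RPKM the width and the size of the median are constrained by the choice of transcripts. Each transcript there had 1 value of at least 1 RPKM and the other under 1 RPKM. The 5th percentile was -0.65 from 30 up to 100 RPKM but -2.73 at 300 RPKM or more, where the 95th percentile was 1.42. Over the classes the 95th percentile lay between 0.77 and 1.78. The most abundant transcripts therefore held a small set with far lower values in germinating seeds beside a majority that hardly differed.

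**Figure D2:**
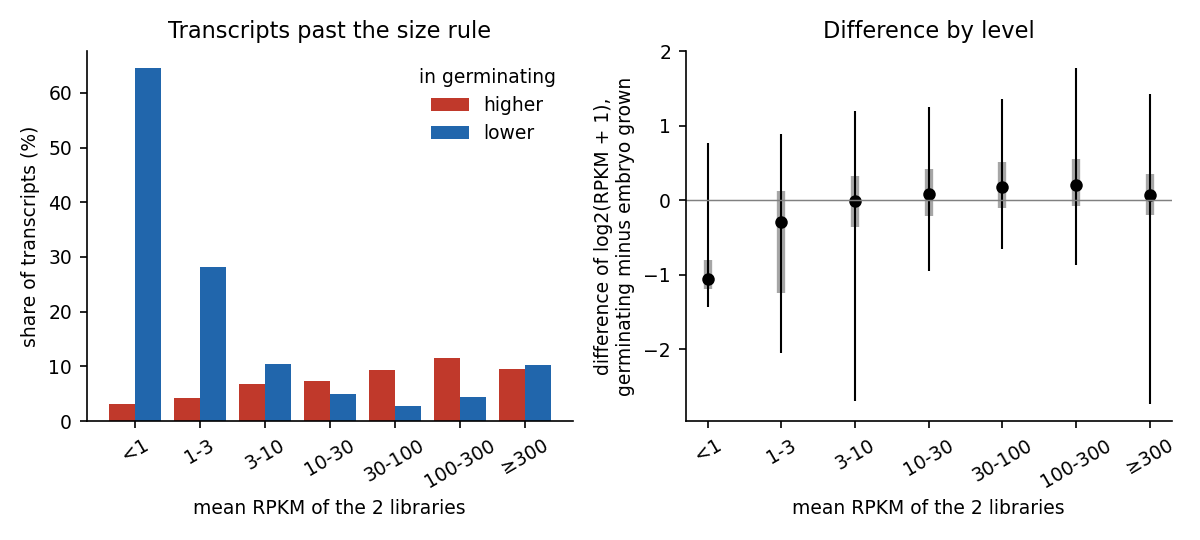
Left, share of transcripts called higher (red) or lower (blue) in germinating seeds, by mean RPKM of the 2 libraries. Right, difference of log2(RPKM + 1), germinating minus grown embryo, with the median (point), the interquartile range (thick bar) and the 5th to 95th percentile (thin bar). The share of lower transcripts drops from 64.5% to 2.70% with level and is 10.3% at 300 RPKM or more, where the thin bar reaches down to -2.73. Below 1 RPKM the share called depends strongly on the choice of transcripts.

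Scaling between the libraries moved these shares. The median ratio of germinating to grown-embryo values, over transcripts above 0 in both, was 0.856, a shift of -0.22 in log2, and the trimmed mean ratio was 0.809, a shift of -0.31. Both ratios were taken over all assembled transcripts, also those under 1 RPKM, and not over the compared ones alone. Among transcripts with at least 1 RPKM in both libraries, the median difference was 0.04 on the log2(RPKM + 1) scale. Relative to the median ratio, 2612 transcripts were higher and 9139 lower, a share of 77.8% lower among the called ones, against 85.5% as deposited. Relative to the trimmed mean ratio the numbers were 2975 and 8475, or 74.0% lower. The turn with level was present under each scaling. With the median ratio it came at a lower level, since the class from 3 up to 10 RPKM held 703 higher and 683 lower ones. At 300 RPKM or more the balance tipped to 34 higher and 23 lower with the median ratio and to 43 and 22 with the trimmed mean, and it was 26 and 27 with equal sums.

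Among transcripts with a mean of at least 10 RPKM, higher values were more frequent but lower ones reached further. Of 7679 such transcripts, 12.8% were called, 8.31% as higher and 4.45% as lower, in numbers 638 and 342. At a difference of at least 2 on the log2(RPKM + 1) scale (5.40% of them), 194 were higher and 221 lower. At 3 or more the numbers were 76 and 125, and at 4 or more 20 and 58. A difference of 5 or more was reached by 3 higher and 17 lower transcripts. The order at 4 or more held with the median ratio, at 31 and 48, and with the trimmed mean, at 35 and 47. At 2 or more it turned, to 238 and 186 and to 254 and 177. At 3 or more it was 93 and 99 with the median ratio and turned to 100 and 93 with the trimmed mean.

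The higher and lower transcripts with a mean of at least 10 RPKM also differed in the library from the start of embryo growth, which no call used. The 638 higher transcripts had a median of 4.90 RPKM there, 12.4 RPKM in the grown-embryo library and 41.8 RPKM in germinating seeds. The 342 lower transcripts had medians of 12.6, 33.0 and 4.69 RPKM in the same order. Their levels at the start of embryo growth were far more spread, with quartiles at 4.05 and 129 RPKM against 1.66 and 11.8 RPKM for the higher transcripts. The 6699 transcripts in neither class had medians of 18.5, 22.2 and 23.9 RPKM.

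**Figure D3:**
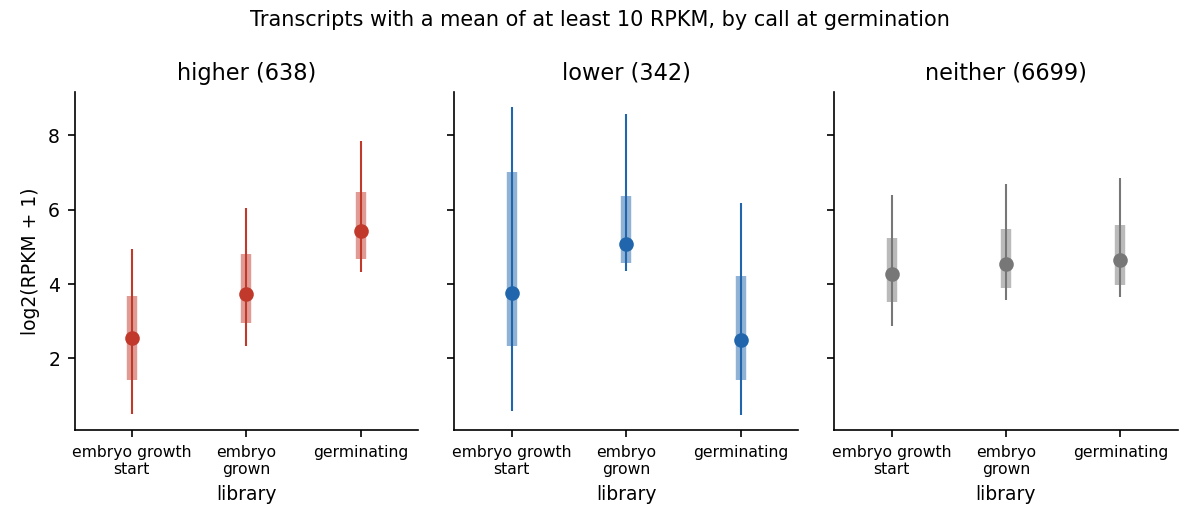
Levels as log2(RPKM + 1) in the 3 libraries for transcripts with a mean of at least 10 RPKM over the 2 compared libraries, by their call at germination. Points are medians, thick bars the interquartile range and thin bars the 10th to 90th percentile over transcripts. The 342 lower transcripts have the widest range at the start of embryo growth, with quartiles at 4.05 and 129 RPKM.

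Grouped by their level at the start of embryo growth, transcripts that were already abundant then were mostly level or lower at germination. Among the transcripts with a mean of at least 10 RPKM, 647 reached 100 RPKM or more in that earliest library, and of these 9 were called higher and 98 lower. None of the 9 was higher by 2 or more, while 40 were lower by 2 or more. Of the 4886 transcripts with 10 up to 100 RPKM at the start of embryo growth, 180 were higher and 87 lower. The 1941 with 1 up to 10 RPKM held 341 higher and 111 lower ones. Of the 205 with less than 1 RPKM, 108 (52.7%) were higher and 46 (22.4%) lower, and nearly all of those lower ones, 43 of 46, were lower by 2 or more. Since these 205 had at least 10 RPKM on average over the later libraries, they are transcripts whose high level lay in 1 or both of those libraries.

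The lower transcripts at 300 RPKM or more are described here as a group, chosen after its values were seen. They were not compared with the uncalled transcripts of that level. All 28 had been abundant at the start of embryo growth, between 148 and 4446 RPKM with a median of 1006. In the grown-embryo library they had 516 to 3201 RPKM, with a median of 925, and in germinating seeds 33.0 to 1299 RPKM, with a median of 118. Their differences ran from -4.27 to -1.0 on the log2(RPKM + 1) scale, with a median of -2.73, and 18 were lower by 2 or more. Those 18 ranged from 516 to 2171 RPKM in the grown-embryo library and from 33.0 to 223 RPKM in germinating seeds, a gap that their selection on this difference sets. Together the 28 contributed 6.93% of all RPKM at the start of embryo growth, 4.58% with a grown embryo and 1.11% at germination.

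The 26 higher transcripts at 300 RPKM or more had mostly been far less abundant at the start of embryo growth. Their median was 57.1 RPKM there, within a range of 0.69 to 770 RPKM. In the grown-embryo library they had 66.5 to 4078 RPKM with a median of 225, and in germinating seeds 429 to 9362 RPKM with a median of 813. Their differences ran from 1.03 to 4.25 on the log2(RPKM + 1) scale, with a median of 1.44. The 9 that were higher by 2 or more had medians of 3.1 RPKM in the earliest library, 112 RPKM with a grown embryo and 778 RPKM at germination. The 26 made up 0.435%, 2.00% and 5.77% of the summed RPKM in stage order.

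Of the 36 transcripts with a mean of at least 1000 RPKM, 4 were higher and 3 lower. The greatest difference among the 4 was 1.81 on the log2(RPKM + 1) scale, in a transcript with 100 RPKM in the earliest library, 772 RPKM with a grown embryo and 2704 RPKM at germination. Another of them was the second most abundant transcript of germinating seeds, with 770, 4078 and 9362 RPKM. Among the 3 lower transcripts, the greatest difference was -3.39, in a transcript with 509 RPKM in the earliest library, 2171 RPKM with a grown embryo and 206 RPKM at germination. The other two had 3201 and 1519 RPKM with a grown embryo and 1299 and 726 RPKM at germination.

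The top of the expression ranking was largely shared. Of the 10 most abundant transcripts of each library, 7 were the same, and the most abundant of all had 40042 RPKM with a grown embryo and 34698 RPKM at germination. The steepest climb into the germinating top 10 was from rank 72 with a grown embryo to rank 9, by the transcript with 2704 RPKM. The deepest drop out of the grown-embryo top 10 was from rank 7 to rank 24, by a transcript with 3201 RPKM and then 1299 RPKM. Of the 100 most abundant, 68 were shared. The 100 leading transcripts of the grown-embryo library held 25 lower and 4 higher ones, and the 100 leading transcripts of germinating seeds held 17 higher and 2 lower. Each list was ranked on 1 of the 2 values behind the call. That favours lower transcripts in the first list and higher ones in the second. Over all compared transcripts 31.0% were lower and 5.25% higher, and at a mean of 300 RPKM or more 10.3% and 9.59%. Of the 1000 most abundant, 823 were shared. The germinating library needed 607 transcripts to reach 50% of its summed RPKM, the grown-embryo library 758 and the library from the start of embryo growth 538.

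Called transcripts carried a modest part of the expression in each library. The 11239 lower transcripts made up 11.7% of the summed RPKM of the grown-embryo library and 2.03% of that of germinating seeds. The 1906 higher transcripts made up 4.23% and 13.9%. The transcripts in neither class held 76.4% of the sum with a grown embryo and 81.2% at germination.

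The greatest increases were of transcripts at 8 RPKM or less in both earlier libraries, and 6 of the 10 greatest were under 1 RPKM with a grown embryo. Among transcripts that reached 10 RPKM in either library, the greatest was in comp49845_c1_seq10. It was listed at 0 at the start of embryo growth, had 0.18 RPKM with a grown embryo and had 63.6 RPKM at germination, a difference of 5.77 on the log2(RPKM + 1) scale. The second, comp38361_c0_seq1, was present at all stages, with 4.73 RPKM, then 8 RPKM and then 351 RPKM, a difference of 5.29 that took it from rank 8913 to rank 239. The 10 greatest increases spanned differences from 4.52 to 5.77. Their levels at germination were 27.0 to 351 RPKM, with a median of 43.3. With a grown embryo they lay between 0 and 8 RPKM (median 0.41), and at the start of embryo growth between 0 and 4.73 RPKM (median 0.085).

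The greatest decreases were larger than the greatest increases on the log2(RPKM + 1) scale, and most were of transcripts high in the grown-embryo library alone. The transcript comp40931_c0_seq1 stood at 6.80 RPKM in the earliest library, 191 RPKM with a grown embryo and 0.78 RPKM at germination, a difference of -6.75 on the log2(RPKM + 1) scale at the last step. The transcript comp43414_c0_seq1 had 5.24, 169 and 0.62 RPKM in the same order, a difference of -6.71. They went from ranks 399 and 474 to ranks 24340 and 27516. The 10 greatest decreases spanned -6.75 to -5.65, from 49.1 to 191 RPKM with a grown embryo to between 0 and 1.59 RPKM at germination. At the start of embryo growth 9 of these 10 were under 10 RPKM, and the other had 455 RPKM. The low values behind all these differences may rest on few reads, so no linear ratio is given. The contrast in size between decreases and increases also depends on the constant added to RPKM. With 0.1 in place of 1, comp49845_c1_seq10 differed by 7.83 and comp38361_c0_seq1 by 5.44. The differences of comp40931_c0_seq1 and comp43414_c0_seq1 were then -7.76 and -7.87.

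**Figure D4:**
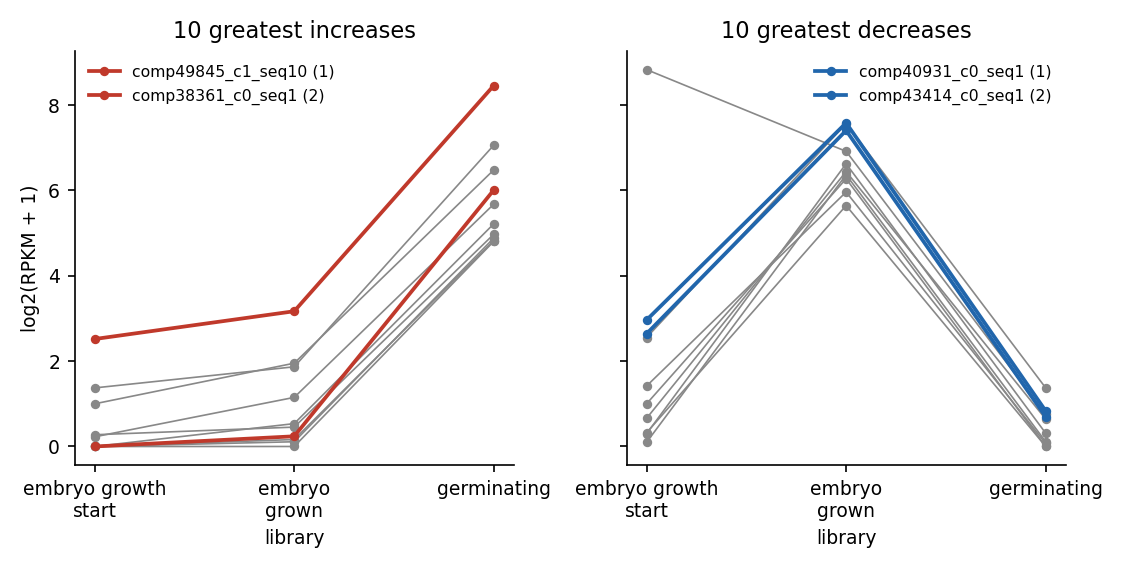
Levels as log2(RPKM + 1) in the 3 libraries of the 10 greatest increases (left) and 10 greatest decreases (right) from grown embryo to germination, with the named transcripts in colour and the others in grey. Each line is 1 transcript with 1 value per library. The increases run from at most 8 RPKM to 27.0 RPKM or more, and 9 of the 10 decreases have their high value in the grown-embryo library alone.

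Many weak transcripts of the grown-embryo library were listed at 0 in germinating seeds, and few the other way round. Of the compared transcripts, 6976 (19.2%) were listed at 0 at germination and 302 (0.832%) with a grown embryo. The imbalance was not particular to the compared transcripts. Over all 178603 assembled transcripts, 73909 were listed at 0 at germination and above 0 with a grown embryo, and 13148 the reverse. The 6976 had a median of 1.26 RPKM with a grown embryo, and 86.6% of them were under 2 RPKM. In the library from the start of embryo growth, 3386 of them (48.5%) were also listed at 0, 3420 were above 0 and under 1 RPKM, and 170 had 1 RPKM or more. The 302 had a median of 1.32 RPKM at germination, and 227 of them (75.2%) were at 0 at the start of embryo growth as well. A listed 0 at unknown depth is no proof of absence, and the part that depth plays in these numbers was not tested.

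The asymmetry was also present among transcripts grouped by RPKM, a grouping that does not make the depth of the libraries equal. Of the 14173 transcripts with 1 up to 2 RPKM in the grown-embryo library, 42.6% were listed at 0 in germinating seeds and 26.7% at the start of embryo growth. Of the 4982 transcripts with 1 up to 2 RPKM in germinating seeds, 4.90% were listed at 0 with a grown embryo and 10.4% at the start of embryo growth. Of the 8999 with 1 up to 2 RPKM at the start of embryo growth, 20.1% were listed at 0 in germinating seeds and 11.6% with a grown embryo. Between 2 and 5 RPKM the share listed at 0 in the other of the compared libraries was 10.5% for grown-embryo transcripts and 0.757% for germinating ones. From 5 up to 10 RPKM it was 2.02% and 0.286%. At 10 RPKM or more, 29 of 7599 grown-embryo transcripts were listed at 0 in germinating seeds, and 8 of 7726 germinating transcripts were listed at 0 with a grown embryo. The highest of these 29 had 76.5 RPKM with a grown embryo and 1.00 RPKM at the start of embryo growth. The highest of the 8 had 27.0 RPKM at germination and was listed at 0 in both earlier libraries.

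**Figure D5:**
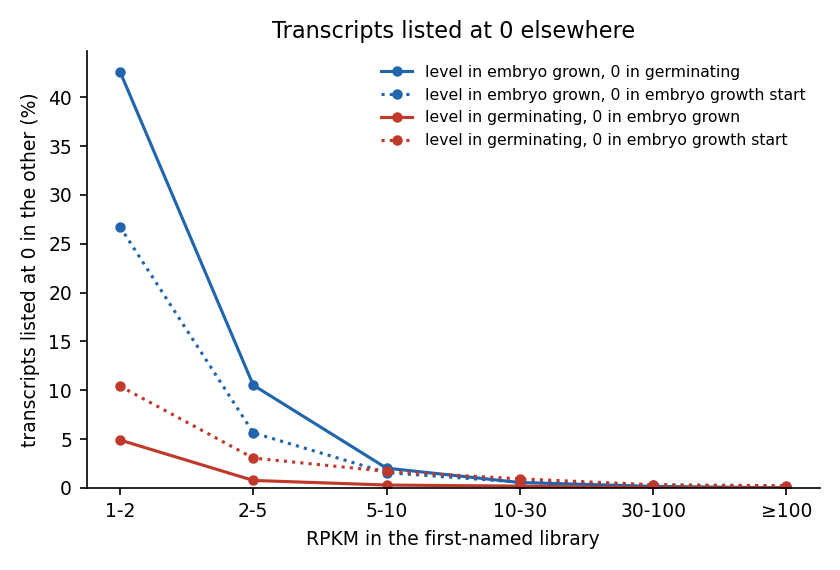
Share of transcripts listed at 0 in another library (y axis, percent), by their RPKM in the grown-embryo library (blue) or the germinating library (red). Solid lines are for the other of the compared libraries and dotted lines for the library from the start of embryo growth. From 1 up to 2 RPKM the share is 42.6% for grown-embryo transcripts at germination and 4.90% for germinating transcripts with a grown embryo.

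The minimum of 1 RPKM cut through a continuous range. The 1780 transcripts whose higher value lay from 1 to under 1.05 RPKM had medians of 1.01 RPKM with a grown embryo and 0.06 RPKM at germination. The 1930 transcripts just outside, from 0.95 to under 1 RPKM, had medians of 0.96 and 0 RPKM. The share listed at 0 in germinating seeds was 48.4% just inside and 51.3% just outside.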

How the data were processed

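RNA sequencing of whole seeds gave 1 paired-end Illumina library at each of 3 stages, per the labels' protocols. The deposited table holds RPKM values that the authors computed and printed to 2 decimals. R 3.1.0 appears in the submitters' processing notes. Assembler, aligner, counting rule and filters: not given in the sources used here. RPKM divides by the library total, so a few abundant transcripts can lower all others.

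Columns were assigned by library title. Differences are log2(RPKM + 1) in germinating seeds minus grown embryo, with a pseudocount of 1, which understates differences of low transcripts. A call needed a difference of 1 and 1 RPKM in the higher library. Level classes use the mean of the 2 libraries. No test was possible. The rule was tested on simulated data only for finding planted changes in transcripts with a mean of at least 10 RPKM. Weaker transcripts and false calls were not covered. Rescaling used the median ratio, a trimmed mean ratio (30% of log ratios and 5% of levels trimmed at each end) or equal sums of the 2 libraries. Transcripts were named by the 2 greatest differences in each direction among those that reached 10 RPKM in either library; the others are given by rank. The transcripts and rules were chosen with earlier results of these data known. Python 3.11.15, numpy 2.4.6, pandas 2.3.3 and matplotlib 3.10.9 were used.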

Additional observations from a re-analysis of the deposited data

How the results depend on the processing

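A pseudocount of 0.1 gave 3013 higher and 14252 lower transcripts, and a pseudocount of 5 gave 692 higher and 967 lower. A minimum of 10 RPKM gave 819 higher and 652 lower, so higher transcripts became the majority. A size rule of 2 gave 385 higher and 1369 lower, and 194 and 221 at a mean of 10 RPKM or more, where lower transcripts became the majority. Median-of-ratios rescaling gave 970 higher at that level, and trimmed means gave 2975 higher in all and 1128 at that level. The median difference was -0.39 with a pseudocount of 0.1, -0.15 with 5, -0.045 after median-of-ratios rescaling and -0.36 without the most abundant transcript. It turned to 0.12 with a minimum of 10 RPKM and to 0.0503 with trimmed means. With at least 10 RPKM in the other library, 29 transcripts were listed at 0 at germination and 8 with a grown embryo. With no minimum, 73909 and 13148 were listed at 0 there and above 0 in the other library. Transcripts at 0 in both libraries are not in these numbers. Pseudocounts and minimums remove or add weak transcripts by construction; for the other settings the cause was not tested. The 4 named transcripts kept their direction in the pseudocount and scaling settings; with a pseudocount of 0.1, comp49845_c1_seq10 differed by 7.83, comp40931_c0_seq1 by -7.76 and comp43414_c0_seq1 by -7.87. Of 56 recomputed values, 34 stayed within 1.5 times (within 0.05 for the median difference). Some of these 34 were fixed by the rules. A difference of 1 already needs 1 RPKM, so the numbers of higher and lower transcripts could not change with no minimum. At a mean of 10 RPKM or more they could not change with a minimum of 10 RPKM. No paired analysis was possible because each stage has 1 library, and no replicate could be left out. Depth limits values near 1 RPKM, which may rest on few reads.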

Other observations

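Each identifier ends in a sequence number within its assembly component. It was 1 for 29945 of the compared transcripts and above 1 for 6361. At a mean of 10 RPKM or more, the shares called were alike, 12.7% and 12.8%, but the split differed. There were 547 higher and 263 lower transcripts with number 1, and 91 higher and 79 lower with a number above 1. Below a mean of 1 RPKM, 54.6% of 10773 transcripts with number 1 were listed at 0 in germinating seeds, against 23.8% of 676 with a number above 1. The transcripts with a number above 1 had a median mean level of 3.65 RPKM, against 1.59 RPKM for the others, and the rule behind the number is not stated. The difference was not tested.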
